A study of Mus musculus with 16 samples.

Results

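The neutrophil genes described here are 10 genes that mark neutrophils or encode the contents of their granules, measured in mouse liver: S100a8, S100a9, Csf3r, Retnlg, Elane, Ltf, Camp, Ngp, Mmp8 and Mmp9. They were found on the array as the non-control probes that carry one of these names in the scanner files. This matched 9 of the 10 genes with 11 of 41174 probes, with 2 probes each for Ltf and Mmp9. The tenth, Elane, was not matched by name. Its probe is called Ela2 in the scanner files and was assigned through its RefSeq accession, which brought the set to 12 probes.

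Liver RNA was hybridised on 16 2-colour Agilent arrays, as 8 dye-swapped experiments of 2 arrays each, and a dye swap counted as 1 replicate (n = 2 for each comparison). In experiments 1 and 4, Nrf2 KO (Nrf2-/-, lacking the gene Nfe2l2 in all cells) was set against wild type. Experiments 2 and 5 held Atg7 cKO (Atg7F/F:Mx1-Cre) against wild type. Experiments 3 and 6 held the double KO (Atg7F/F:Mx1-Cre:Nrf2-/-) against wild type, and experiments 7 and 8 held it directly against Atg7 cKO. All mice, controls included, received pIpC at 8 weeks of age, and livers were taken 4 weeks later. pIpC mimics viral RNA, raises type I interferon and so switches on the Mx1 promoter that drives Cre. Mx1-Cre acts in hepatocytes and also in blood-forming cells and macrophages, so loss of Atg7 is not restricted to one cell type of the liver. The labels number no animals, so the spread between experiments may be partly technical. The design asks what losing Nrf2, autophagy or both does to liver transcripts.

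Neutrophils are short-lived white cells made in bone marrow that enter the liver in small numbers in health and in large numbers in inflammation. During maturation they fill granules in sequence. Azurophil granules hold serine proteases such as elastase (Elane), specific granules hold lactoferrin (Ltf), the cathelicidin precursor (Camp), neutrophilic granule protein (Ngp) and collagenase (Mmp8), and gelatinase granules hold Mmp9. Much granule mRNA is made in marrow precursors and is low in mature cells, whereas S100a8, S100a9, Csf3r and Retnlg mRNAs are high in circulating neutrophils. S100a8 and S100a9 form calprotectin, a calcium- and zinc-binding complex of the cytosol that monocytes also make. In whole liver, more cells of a type and more RNA per cell cannot be told apart.

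The probes are single 60-base DNA strands, and the sequences of 4 of them are given because the results turn on what they detected. S100a8 was above background in every genotype, Camp and Ltf only in some knockout channels, and Elane in none. Each of the 4 has at least 1 forward reading frame without a stop codon. Per the file headers their coordinates are on mm9: S100a8 at chr3:90473778-90473837, Ltf at chr9:110942873-110942932, Camp at chr9:109749992-109750051 and Elane at chr10:79350763-79350822.
S100a8: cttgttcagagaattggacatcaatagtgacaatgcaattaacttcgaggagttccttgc
Ltf: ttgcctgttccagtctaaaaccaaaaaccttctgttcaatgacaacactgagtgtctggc
Camp: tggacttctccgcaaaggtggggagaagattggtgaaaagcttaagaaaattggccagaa
Elane: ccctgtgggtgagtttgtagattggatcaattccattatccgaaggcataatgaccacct

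Over the 12 arrays with scanner files, 43.4% to 57.2% of 43379 spots were well above background. Nfe2l2 fell by 3.88 (log2) in Nrf2 KO (limma adjusted p = 0.0259) and by 3.71 in the double KO (adjusted p = 0.00068), and rose by 1.2 in Atg7 cKO. Atg7 fell by 0.81 in Atg7 cKO and by 0.73 in the double KO. The Y-linked Ddx3y and Eif2s3y were above background in 12 of 12 channels of experiments 1 to 3 and in 0 of 12 of experiments 4 to 6, and the reverse held for Xist at 3 of its 4 probes (1 of 12 channels in experiments 1 to 3 at the other). Each comparison with wild type thus has 1 experiment of either set. Slides paired experiment 1 with 2, experiment 3 with 4, and experiment 5 with 6.

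Detection separated the 10 genes into those the wild-type liver showed and those it did not. In wild type, S100a9 was well above background in 12 of 12 channels, S100a8 in 10, Csf3r in 8 and Ngp in 1, and the other 6 genes in none. In Nrf2 KO, S100a9, S100a8 and Csf3r were above background in 4 of 4 channels and no other member in any. In Atg7 cKO, 8 of the 10 genes were above background in at least 1 of 4 channels, and in the double KO 9 of 10. In the double KO, 5 genes (S100a8, S100a9, Csf3r, Retnlg and Mmp8) were so in all 4 channels. Elane was above background in 0 of 24 channels.

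**Figure D1:**
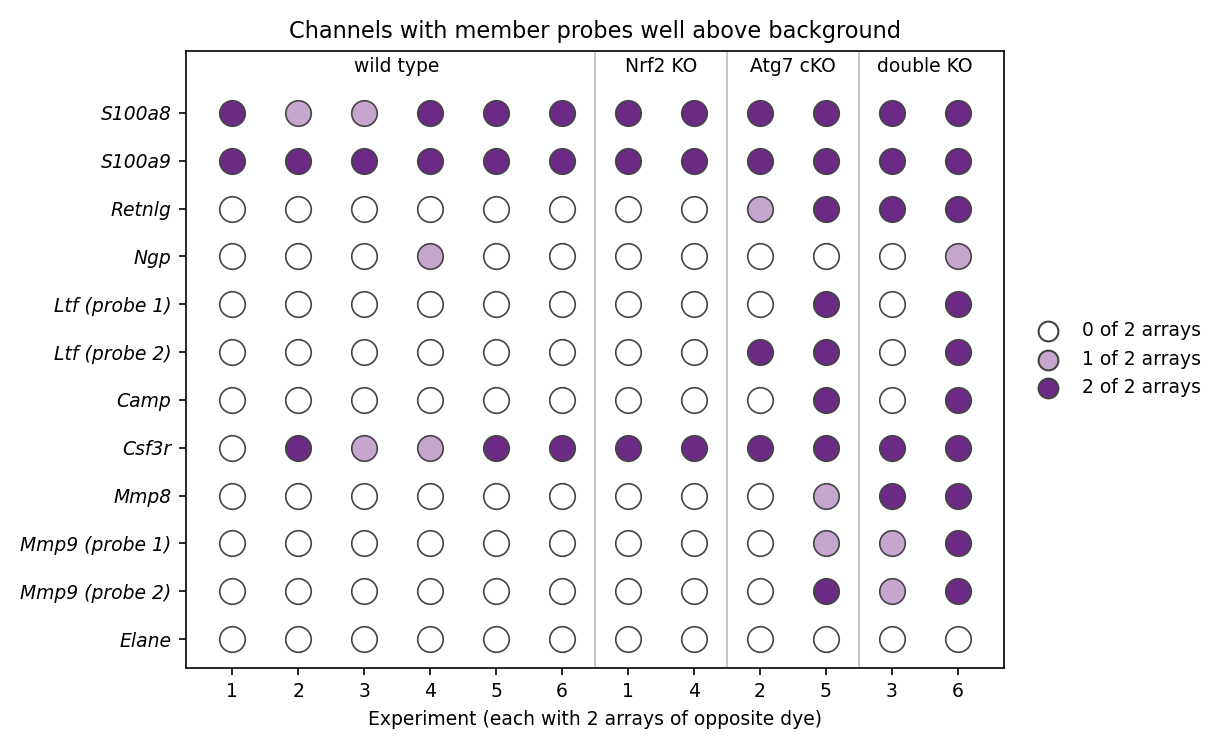
Number of arrays (0, 1 or 2 of a dye swap) on which each member probe was well above background, for each experiment (horizontal axis) and genotype; each row is a probe, and Ltf and Mmp9 have 2 rows each. Only S100a8, S100a9 and Csf3r are filled in all knockout columns, and wild-type columns are empty for the other genes apart from 1 array for Ngp.

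A probe was kept for testing where it was well above background in at least 4 of 24 channels, and a gene was represented by its brightest kept probe. This kept 8 of the 10 genes and left out Ngp and Elane. Of these 8, Retnlg, Ltf, Camp, Mmp8 and Mmp9 were kept through knockout channels alone, so a count over the 8 genes is a description and supports nothing about their direction. S100a8, S100a9 and Csf3r were also above background in most wild-type channels. In Nrf2 KO, limma called 0 of the 8 genes at an adjusted p of 0.05 (0 at an unadjusted p of 0.05 as well), against 0.0122% of 16379 genes tested. In Atg7 cKO it called 2, both higher, against 39.6% of all genes in either direction and 23.4% higher. In the double KO it called 5, all higher, against 37.4% in either direction and 21.4% higher.

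S100a9, the larger calprotectin subunit, had the widest measured range. Its log2 level (normalised signal with an offset of 50) in wild type was 7.65 at the lowest, 8.28 at the median and 8.40 at the highest over the 6 experiments. It was 8.40 and 8.06 in Nrf2 KO, 8.72 and 9.97 in Atg7 cKO, and 11.97 and 11.16 in the double KO. The Nrf2 KO levels lay within or at the edge of the wild-type range, both Atg7 cKO levels lay above it, and both double KO levels lay above those of Atg7 cKO. The log2 ratio to wild type was 0.17 ± 0.70 (SD, n = 2) in Nrf2 KO, with 0.67 in experiment 1 and -0.33 in experiment 4. S100a9 rose by 1.33 ± 0.38 in Atg7 cKO (2.52-fold, limma adjusted p = 0.0301) and by 3.27 ± 0.72 in the double KO (9.63-fold, adjusted p = 0.00228). The 95% interval of the double KO value ran from 2.41 to 4.12.

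S100a8, the partner subunit, followed the same order of genotypes. Its log2 level in wild type was 6.12 at the lowest, 6.24 at the median and 6.46 at the highest. It was 6.25 and 6.22 in Nrf2 KO, 6.52 and 7.16 in Atg7 cKO, and 8.71 and 7.82 in the double KO. Nrf2 KO lay inside the wild-type range, and the lower Atg7 cKO level, from experiment 2, lay just above it. S100a8 rose by 0.65 ± 0.34 in Atg7 cKO (limma adjusted p = 0.0421) and by 1.94 ± 0.45 in the double KO (3.83-fold, adjusted p = 0.00182), and its ratio in Nrf2 KO was 0.00 ± 0.13. The offset of 50 shrinks ratios of dim probes such as this one. On the processed signals deposited for the same arrays, Atg7 cKO stood at a log2 ratio of 1.64 ± 0.07 and the double KO at 4.05 ± 1.65 (5.22 in experiment 3 and 2.88 in experiment 6).

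The Atg7 cKO calls of both S100 genes were near the threshold. Without experiment 2 the adjusted p was 0.0791 for S100a9 and 0.0551 for S100a8, and without experiment 5 it was 0.205 and 0.286. S100a8 also lost the call without experiment 1 or 4 (0.0805 and 0.0806) and on processed signals (0.0677), and both genes lost it with the slide as a block (0.0896 for S100a9 and 0.0821 for S100a8) and with no filter on dim probes (0.0501 and 0.0675). The double KO calls of both genes passed in all 15 alternatives, with adjusted p up to 0.0214 and 0.0156. The double KO exceeded Atg7 cKO through wild type by 1.93 for S100a9 (adjusted p = 0.0941) and by 1.29 for S100a8 (adjusted p = 0.0611). The interaction, which measures how far the double KO departs from the sum of the single knockouts, was 1.76 (adjusted p = 0.274) and 1.29 (adjusted p = 0.176). Limma called 0 of 8 members in either of these contrasts, against 4.96% and 0.72% of all genes tested. At an unadjusted p of 0.05 there were 3 and 2 members, against 3612 and 2367 of all 16379 genes.

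**Figure D2:**
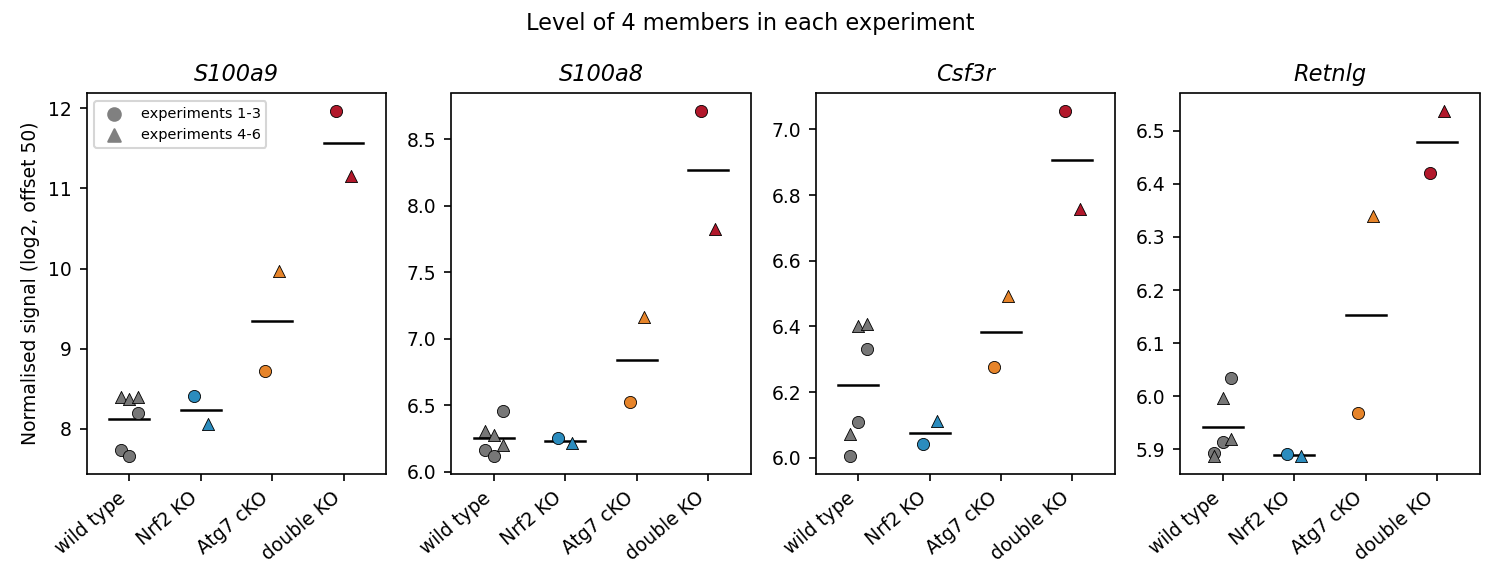
Normalised log2 signal (vertical axis, own scale in each panel, offset 50) of S100a9, S100a8, Csf3r and Retnlg by genotype; each point is 1 experiment (mean of 2 arrays), circles are experiments 1 to 3, triangles 4 to 6, and bars are means. The double KO points lie above all other points in each panel, with S100a9 at 11.97 and 11.16 against a wild-type maximum of 8.40.

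The stretch of DNA upstream of the S100a8 and S100a9 starts is given because these neighbouring genes moved together. The 250 bases before each start are from RefSeq (GRCm38.p6), 5′ to 3′ on the gene's strand, at chr3:90668821-90669070 on the plus strand for S100a8 and chr3:90695722-90695971 on the minus strand for S100a9. Capitals mark matches, on either strand, to TTNNGCAA and TGNNGCAA (forms of the site of C/EBP factors, which drive granulocyte genes), GAGGAAG (a site of PU.1, a factor of myeloid cells) or TGACNNNGC (the core of the antioxidant response element that Nrf2 binds with Maf proteins).
S100a8: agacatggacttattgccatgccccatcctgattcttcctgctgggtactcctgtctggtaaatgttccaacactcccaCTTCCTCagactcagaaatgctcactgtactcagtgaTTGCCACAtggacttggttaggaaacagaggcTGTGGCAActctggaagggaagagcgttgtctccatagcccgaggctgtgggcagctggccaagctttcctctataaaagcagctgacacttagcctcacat
S100a9: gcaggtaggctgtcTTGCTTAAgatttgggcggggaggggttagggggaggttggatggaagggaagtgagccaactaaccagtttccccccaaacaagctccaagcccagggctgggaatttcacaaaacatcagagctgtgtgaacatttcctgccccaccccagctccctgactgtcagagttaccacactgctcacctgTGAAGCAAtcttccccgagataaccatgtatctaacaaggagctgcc

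Promoters of 9 of the 10 genes were in that table. TTNNGCAA was found in 5 of the 9 (Ltf, Mmp8, Ngp, Retnlg and S100a9) and in 9.56% of 32851 promoter windows of the same length. TGNNGCAA was found in 6 (Camp, Csf3r, Elane, Mmp8, S100a8 and S100a9) and in 9.59%, and the forms exclude each other at a given position and strand. GAGGAAG was found in 4 (Csf3r, Elane, Mmp8 and S100a8) and in 10.6%. TGACNNNGC was found in 0 of the 9 and in 10.2%. The motifs were chosen with the expression values known, and a match is a run of letters and not a measured site.

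Csf3r encodes the receptor for granulocyte colony-stimulating factor, the hormone that raises neutrophil output from marrow. Its probe lies at chr4:125721294-125721353 (mm9). Its log2 level in wild type was 6.01 at the lowest, 6.22 at the median and 6.41 at the highest. It was 6.04 and 6.11 in Nrf2 KO, 6.28 and 6.49 in Atg7 cKO, and 7.06 and 6.76 in the double KO. Nrf2 KO lay inside the wild-type range, Atg7 cKO lay inside it in experiment 2 and just above it in experiment 5, and both double KO levels lay above it. Csf3r rose by 0.54 ± 0.26 in the double KO (limma adjusted p = 0.0101), whereas its ratio was 0.13 ± 0.06 in Atg7 cKO (adjusted p = 0.324) and 0.04 in Nrf2 KO. On processed signals the double KO ratio was 2.10 in experiment 3 and 0.54 in experiment 6, so the receptor's value rested more on experiment 3.

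Retnlg, a secreted resistin-like protein of neutrophils, was not above background in any of 12 wild-type or 4 Nrf2 KO channels. It was above it in 3 of 4 channels of Atg7 cKO and in 4 of 4 of the double KO. Its log2 level was 5.97 and 6.34 in Atg7 cKO and 6.42 and 6.54 in the double KO, against a wild-type range of 5.89 to 6.03. The double KO levels lay above all wild-type levels, and the Atg7 cKO level of experiment 2 lay within their range. The level in the double KO (mean 6.48, against a measured 5.98 on the wild-type channels of the same arrays) was at least 1.42-fold higher (limma adjusted p = 0.0116, and 0.098 without experiment 6). Here and for the genes below, "at least" means that wild type was set on each array to the higher of its own level and the lowest level that was well above background. For Retnlg the wild type's own level was the higher, so the bound equals the fitted fold, and the gene was tested through its knockout channels alone. In Atg7 cKO the mean was 6.15 against 5.96 (adjusted p = 0.144). On processed signals, where the software replaces a channel at background by a surrogate, the log2 ratio was 2.73 and 2.88 in the double KO and 1.08 and 2.15 in Atg7 cKO.

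Lactoferrin (Ltf), which binds iron, was above background at its brighter probe in all 4 Atg7 cKO channels and in the 2 double KO channels of experiment 6, and in 0 of 2 double KO channels of experiment 3. Its log2 level was 6.0 and 6.29 in Atg7 cKO and 5.95 and 6.46 in the double KO, against a wild-type range of 5.88 to 5.97. The double KO level was thus above the wild-type range in experiment 6 and inside it in experiment 3. The double KO mean was 6.21 against a measured 5.91 in wild type (limma adjusted p = 0.14), and that of Atg7 cKO was 6.14 against 5.92 (adjusted p = 0.242), so neither passed the test. Without experiment 3 the double KO ratio of Ltf rested on experiment 6 alone and was 0.56. With the slide as a block the ratio was 0.29 (limma adjusted p = 0.0407). The other Ltf probe, whose mm9 positions on chr9 (110938264 to 110941314) span more than its 60 bases, was above background only in the 4 knockout channels of experiments 5 and 6.

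Camp, the precursor of the antimicrobial peptide CRAMP, was above background in those same 4 knockout channels and in no other of the 24. Its log2 level was 5.78 and 6.04 in Atg7 cKO and 5.88 and 6.32 in the double KO, against a wild-type range of 5.78 to 5.88. Both levels above the wild-type range came from experiments 5 and 6, which shared a slide and also the set with Xist. On processed signals the Camp log2 ratio was 2.23 in experiment 5 and 3.52 in experiment 6, against 0.31 in experiment 2 and 0.00 in experiment 3. In the double KO, where 2 of 4 channels were above background, the mean was 6.10 against a measured 5.86 in wild type (limma adjusted p = 0.206). Slide and set cannot be told apart for this difference between experiments.

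Ngp, a cystatin-like protein of specific granules, was above background in 1 wild-type channel of experiment 4 and 1 double KO channel of experiment 6, and was not tested. Its log2 level stayed between 5.81 and 5.95 over all 12 levels of knockout and wild-type RNA.

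Mmp8, the neutrophil collagenase, was above background in all 4 double KO channels, in 1 of 4 Atg7 cKO channels and in none of wild type or Nrf2 KO. Its log2 level was 6.35 and 6.11 in the double KO and 5.86 and 6.01 in Atg7 cKO, against a wild-type range of 5.80 to 5.95. Both double KO levels lay above that range. The double KO mean of 6.23, against a measured 5.91 in wild type, was at least 1.23-fold higher (limma adjusted p = 0.0236). The gene was tested through its knockout channels alone, so the call is a description. The call was lost without any 1 of experiments 1, 3, 4 or 6 (adjusted p of 0.0546, 0.186, 0.0546 and 0.0586) and with the slide as a block (0.087). On processed signals its log2 ratio was 3.07 in experiment 3 and 2.40 in experiment 6.

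Mmp9, the gelatinase that digests basement membrane collagen and that macrophages also make, was measured by 2 probes. Its brighter probe, printed 10 times on the array, was above background in 3 of 4 double KO and 2 of 4 Atg7 cKO channels. Its log2 level was 6.04 and 6.03 in the double KO and 5.92 and 5.99 in Atg7 cKO, against a wild-type range of 5.89 to 5.93. The double KO mean was 6.03 against a measured 5.91 in wild type (limma adjusted p = 0.0873). With a smaller offset of 10 the ratio was 0.33 with an adjusted p of 0.0208, and with processed signals 1.11 with 0.00348. Elane, the azurophil protease elastase, was never above background, and its log2 level ranged from 5.73 to 5.91 over the 12 levels. No fold is given for it.

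**Figure D3:**
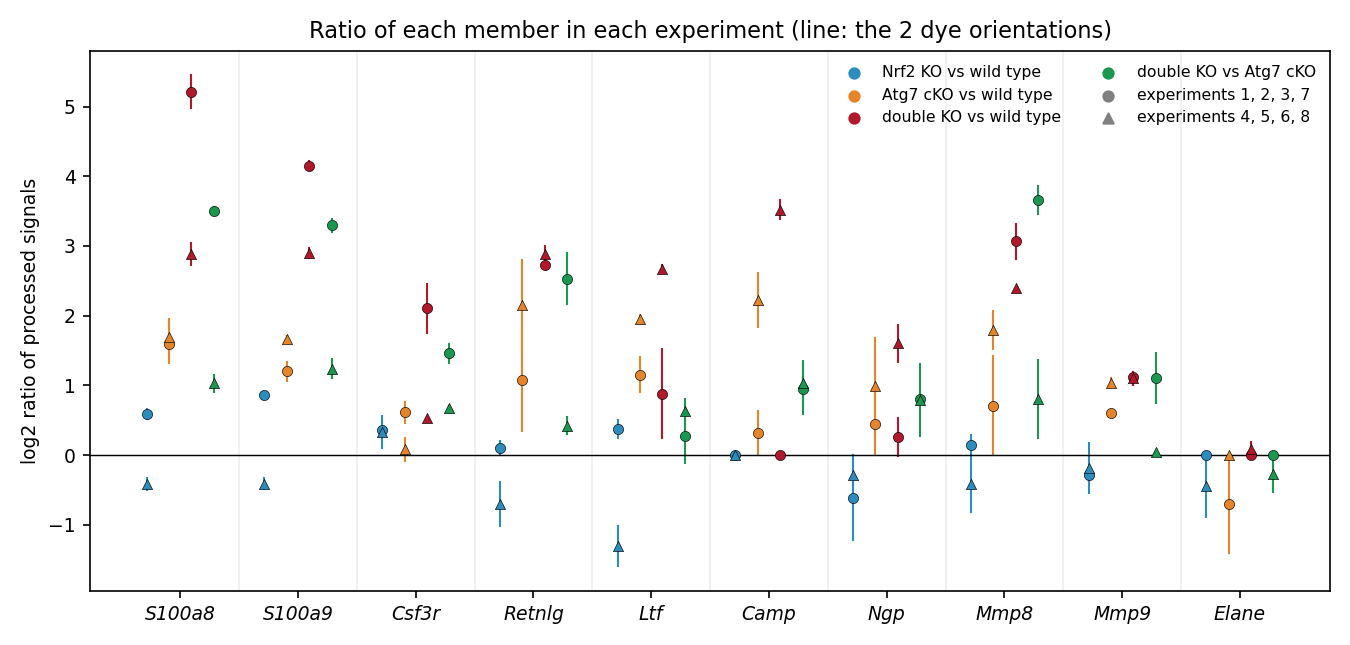
Log2 ratio of processed signals for each member (brightest kept probe, or the single probe of Ngp and Elane) in each experiment; symbols are the mean of 2 arrays, vertical lines join the dye orientations, and colours are the comparisons. S100a8 and S100a9 are highest in experiment 3 (5.22 and 4.15), whereas Camp is at 0.00 in experiment 3 and 3.52 in experiment 6.

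The direct arrays set the double KO against Atg7 cKO without wild type between them, as log2 ratios of processed signals with no flags for background. An exact 0 in such ratios was, in 95% of cases on the arrays with flags, a spot where neither channel was measured. S100a9 rose by 2.27 ± 1.45 (SD, n = 2), with 3.30 in experiment 7 and 1.24 in experiment 8 (limma adjusted p = 0.0474). It was the only 1 of the 8 kept members called, against 14.8% of all genes in either direction and 6.73% higher. S100a8 had a mean of 2.27 ± 1.75, with 3.50 and 1.03 (adjusted p = 0.0847, 95% interval 0.51 to 4.02). Mmp8 had 3.65 and 0.81 (adjusted p = 0.0675), Retnlg 2.53 and 0.43 (adjusted p = 0.102) and Csf3r 1.46 and 0.68 (adjusted p = 0.108). These 5 genes were each higher in the double KO in both experiments, by more in experiment 7. Camp had 0.95 and 1.03, Ngp 0.81 and 0.80, and Ltf 0.28 and 0.63, with no such gap between experiments. Mmp9 had 1.1 and 0.04, and the Elane ratio was 0.00 and -0.26. The S100a9 call was lost when any 1 of experiments 1 to 7 was left out (adjusted p of 0.0578 to 0.333) and in a fit of experiments 7 and 8 alone (0.154) or with no filter on dim probes (0.123). Without experiment 8 the direct comparison rested on experiment 7 alone, at 3.65 for Mmp8, 2.53 for Retnlg and 1.1 for Mmp9. A single experiment has no spread of its own, and these genes were kept through knockout channels alone. Leaving out experiment 3 or 6 brought Csf3r under the threshold, with its direct ratio unchanged at 1.07.

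The same contrast can be computed through wild type by subtraction. For S100a8, experiment 3 minus experiment 2 was 3.62 and experiment 6 minus experiment 5 was 1.19 on processed signals, beside 3.50 and 1.03 in experiments 7 and 8. For S100a9 the values were 2.95 and 1.23, beside 3.30 and 1.24, and for Csf3r 1.49 and 0.45, beside 1.46 and 0.68. Mmp8 had 2.36 and 0.60 by subtraction, beside 3.65 and 0.81, and Retnlg 1.65 and 0.72, beside 2.53 and 0.43. Camp had -0.31 and 1.30, beside 0.95 and 1.03, Ngp -0.20 and 0.62, beside 0.81 and 0.80, and Ltf -0.27 and 0.72, beside 0.28 and 0.63. At these probes Camp, Ngp and Ltf thus had opposite signs in experiment 3 minus 2 and in experiment 7. The other Ltf probe had 0.97 and 0.11, the same sign. Camp and Ngp were above background in no channel of experiments 2 and 3. The Camp ratio was an exact 0 on both arrays of experiment 3, so these signs come from spots at background. Over 16379 genes, experiment 7 correlated with experiment 3 minus 2 at Pearson's r of 0.871 and with experiment 6 minus 5 at 0.627, and experiment 8 at 0.629 and 0.880. Genes are not independent replicates, and the labels do not say whether experiments 7 and 8 used the same RNA as these pairs.

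Over the 12 log2 levels (6 experiments, knockout and wild type), the pairwise Pearson's r between the 8 kept members ranged from 0.40 to 0.98. S100a8 and S100a9 were at 0.98, Ltf and Camp at 0.93, and Ltf and Mmp8 at 0.40. Outside the members, the genes most like S100a9 were Rnf213, Zfp975, Map3k1, Mefv and Pfkp, with r between 0.982 and 0.986. Those most like Ltf were Bend4 (r = 0.975), Akr1c18 (0.952), Mpo (0.949), Tmem119 (0.937) and Adamtsl2 (0.932). The levels share arrays and genotypes, so these correlations only describe the order of the samples.

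Of 11 tested genes of other granule proteins, of 15 listed, 7 rose in Atg7 cKO and 8 in the double KO, with medians of 1.30 and 1.45, and 0 fell in either. Over all genes tested, 23.4% and 21.4% were called higher. The 7 that rose in Atg7 cKO were Cd63, Chil3, Cyba, Cybb, Hp, Lcn2 and Lyz2. Chil3, a chitinase-like protein of myeloid cells, rose by 1.76 and 3.46 (limma adjusted p = 0.0362 and 0.00481). Lcn2, which starves bacteria of iron, rose by 2.11 and 3.03, and lysozyme Lyz2 by 1.90 and 2.97. The mean wild-type log2 level of Lcn2 was 6.51 on the arrays of Nrf2 KO, 7.47 on those of Atg7 cKO and 9.33 on those of the double KO. The Lcn2 ratios of the genotypes thus rest on unlike wild-type levels. Hepatocytes make Hp, and Lcn2 under inflammation, and macrophages make Lyz2, Chil3, Cybb, Cyba and Cd63, so these are not neutrophil genes alone. Of the azurophil proteases, named after their values were seen, cathepsin G (Ctsg) had a log2 ratio of -0.03 in Atg7 cKO (adjusted p = 0.773) and 0.09 in the double KO (adjusted p = 0.33), and proteinase 3 (Prtn3) -0.01 (adjusted p = 0.898) and 0.08 (adjusted p = 0.208). In the double KO, the azurophil enzyme myeloperoxidase (Mpo) had a log2 ratio of 0.32 (adjusted p = 0.0581), with 0.12 in experiment 3 and 0.53 in experiment 6. It was 0.21 in Atg7 cKO (adjusted p = 0.157). Directly against Atg7 cKO, 4 of the 11 rose, beside 6.73% of all genes called higher. They were Lcn2 by 2.38 (limma adjusted p = 0.0247), Hp by 1.82, Prtn3 by 1.89 (adjusted p = 0.0102) and the peptidoglycan-binding Pglyrp1 by 0.86 (adjusted p = 0.0481). These direct ratios are of processed signals, and Prtn3 and Pglyrp1 were near background. Prtn3 was above it in 1 of 12 wild-type, 1 of 4 Atg7 cKO and 4 of 4 double KO channels. Pglyrp1 was above it in 0 of 12, 2 of 4 and 4 of 4, so it was tested through knockout channels alone.

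Of 25 tested surface and signalling genes of 35 listed, 12 rose and 1 fell in Atg7 cKO, and 22 rose and 1 fell in the double KO, with medians of 0.28 and 0.64, beside 23.4% and 21.4% of all genes called higher. In wild type, 13 of the 25 were above background in at least 6 of 12 channels and 8 in none, and those 8 were tested through knockout channels alone, so the counts are a description. The one that fell was G0s2, by 1.06 and 1.38, a regulator of lipolysis that hepatocytes also express, named here after its values were seen. In the double KO the oxidase subunit Ncf4 rose by 2.12, and the formyl peptide receptors Fpr2 and Fpr1, which sense bacterial peptides, by 1.77 and 1.54. Ncf4, Fpr2 and Fpr1 also rose in Atg7 cKO, by 1.43, 0.94 and 1.07. The chemokine receptor Cxcr2, which brings neutrophils into tissue, was above background in 0 of 12 wild-type, 2 of 4 Atg7 cKO and 4 of 4 double KO channels. Its double KO mean of 6.30, against a measured 5.97 in wild type, was at least 1.25-fold higher (limma adjusted p = 0.0148). The gene was kept through knockout channels alone, so calls for it are a description. It rose by 1.72 ± 0.41 directly against Atg7 cKO (adjusted p = 0.03), and its ratio was 0.13 in Atg7 cKO (adjusted p = 0.157). Ly6g, the usual surface marker of mouse neutrophils, was matched by no probe name and was not analysed here.

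Of 15 tested signals that attract or mobilise neutrophils, of 21 listed, 7 rose and 1 fell in Atg7 cKO and 10 rose and 1 fell in the double KO, against the same shares of all genes. In wild type, 8 of the 15 were above background in at least 6 of 12 channels and 5 in none. Those 5 were tested through knockout channels alone, so the counts are a description. The one that fell was Cxcl12, which holds neutrophils in marrow, by 1.66 and 1.45. The chemokine Cxcl1, a ligand of Cxcr2, rose by 3.80 ± 0.24 in the double KO (limma adjusted p = 0.00111). Directly against Atg7 cKO, where ratios are of processed signals, it rose by 3.47 ± 1.27 (limma adjusted p = 0.0139). In Atg7 cKO its ratio was 0.78 ± 0.85 (adjusted p = 0.0887), with 0.18 in experiment 2 and 1.38 in experiment 5. Cxcl2, another ligand, was above background in 0 of 12 wild-type, 0 of 4 Atg7 cKO and 4 of 4 double KO channels. Its double KO mean of 6.36, against a measured 5.94 in wild type, was at least 1.34-fold higher (limma adjusted p = 0.0209). The gene was kept through its double KO channels alone, so the call is a description. The adhesion molecules Vcam1 and Icam1 rose by 2.72 and 2.56 in the double KO, and by 1.46 and 1.34 in Atg7 cKO. Csf3, the ligand of Csf3r, was above background in 0 of 24 channels. The granulocyte transcription factors had 3 higher and 1 lower of 6 tested in the double KO, beside 3506 and 2616 of all 16379 genes. Cebpd rose by 3.0, Irf8 by 1.97 and Cebpb by 1.68. Macrophages also use these factors, and hepatocytes also use Cebpd and Cebpb. In Atg7 cKO, Cebpd and Irf8 rose by 1.80 and 1.08, and the ratio of Cebpb was 0.37 (limma adjusted p = 0.0825). The factor that fell in the double KO was Cebpa, by 1.21, and it fell by 0.90 in Atg7 cKO. Cxcl12 and Cebpa are named after their values were seen. In Nrf2 KO, limma called 0 of the 57 tested genes of these 4 lists, beside 2 of all 16379 genes tested. At an unadjusted p of 0.05 it was 3 of the 57, beside 606 of the 16379.

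**Figure D4:**
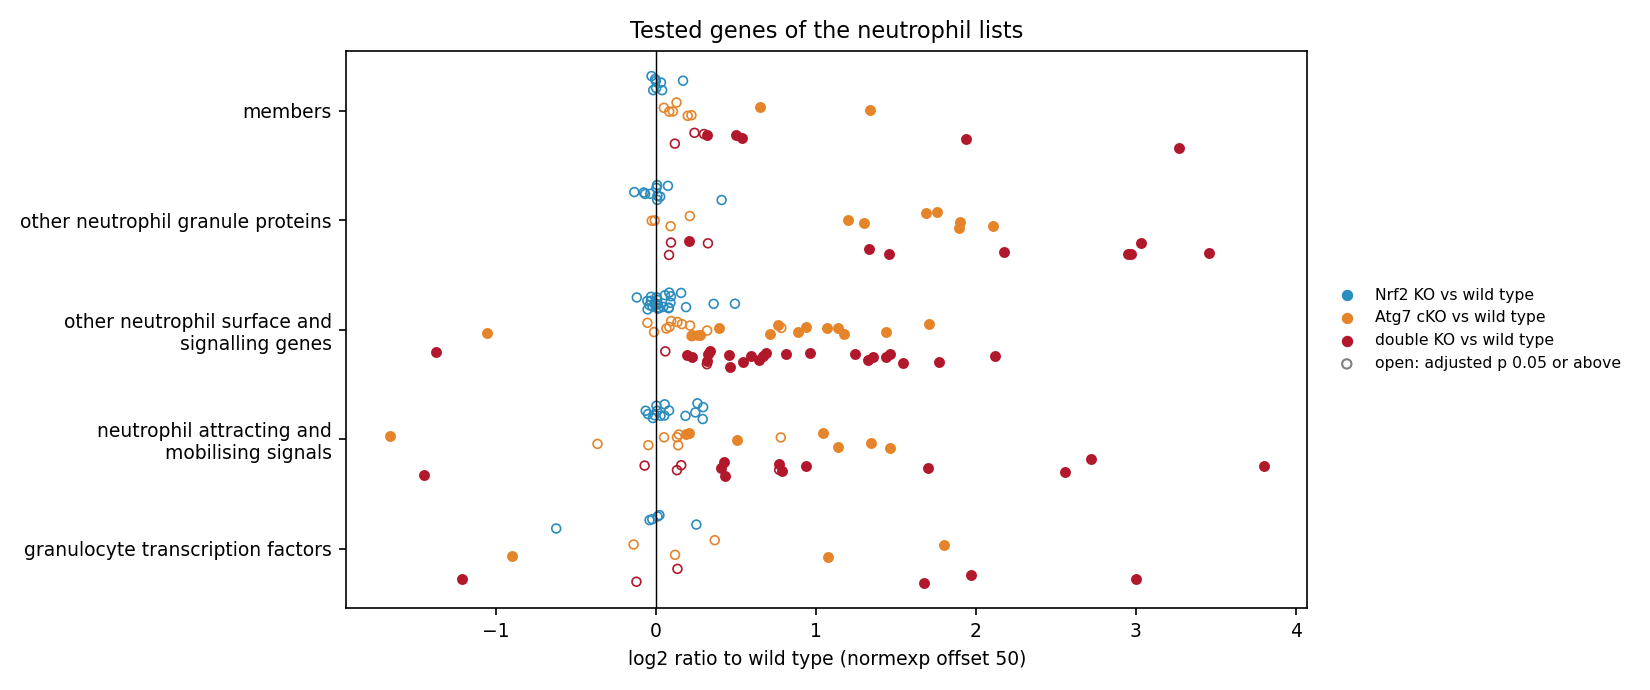
Log2 ratio to wild type (horizontal axis, offset 50) of the tested members and of the tested genes of 4 neutrophil lists; each point is a gene, colours are genotypes, and filled points passed an adjusted p of 0.05. Nrf2 KO points are all open, and the double KO points extend furthest right, to 3.80 for Cxcl1.

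Markers of other cells moved in the same samples. Of 16 macrophage and monocyte markers, 14 rose in Atg7 cKO and 15 in the double KO, with medians of 1.45 and 1.54, beside 23.4% and 21.4% of all genes called higher, and Marco rose by 3.34 and 4.43. Their summed level was 6963 to 10016 in wild type, 8125 to 9196 in Nrf2 KO, 31779 to 40380 in Atg7 cKO and 43886 to 50381 in the double KO, as linear normalised signal. The summed level of the 8 kept neutrophil members was 633 to 794 in wild type, 702 to 779 in Nrf2 KO, 892 to 1591 in Atg7 cKO and 3010 to 4921 in the double KO. S100a9 carried 31.8% to 42.9% of the latter sum in wild type and 75.8% to 81.6% in the double KO, and the sum without it was 429 to 476 in wild type, 470 to 586 in Atg7 cKO and 730 to 906 in the double KO. Each gene's level in these sums includes the offset of 50. Of the 8 members, 5 were above background in no wild-type channel, so they added mainly offset to the wild-type sums. The wild-type sum without S100a9 was thus largely offset, and the share of S100a9 depends on the offset too. The macrophage sum and the sum of all 8 members were higher in Atg7 cKO than in wild type. In neither did the ranges of Atg7 cKO and the double KO overlap. Bright genes weigh most in a linear sum, among them Marco at mean log2 levels of 12.36 in Atg7 cKO and 13.70 in the double KO. Directly against Atg7 cKO, limma called 2 of the 16 macrophage and monocyte markers higher and 1 lower, with a median of 0.20. Over all 16379 genes, 1103 were called higher and 1323 lower there. Without S100a9, the member sums of wild type and Atg7 cKO overlapped. Each knockout range is of 2 experiments, and the differences between sums were not tested. Hepatocyte markers fell for 6 of 7 genes in Atg7 cKO and 5 of 7 in the double KO, beside 2663 and 2616 of all 16379 genes called lower. What part these cells have in the S100a8, S100a9 and Mmp9 values was not tested.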

How the data were processed

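Scanner files of experiments 1 to 6 held spot mean signal and median background as intensity, per the file headers, from Agilent Feature Extraction 9.5.1 per the submitters' processing notes, with probes on mm9. The deposited value table held log10 ratios of processed signals (Cy5 over Cy3), within 0.005 of the scanner ratios. It was used for experiments 7 and 8 after conversion to log2. Signals were corrected with normexp (offset 50), normalised by loess and turned to knockout over partner in limma 3.58.1 under R 4.3.3. Dye swaps were averaged. Control spots were left out. Spots with outlier flags were left out of the scanner signals but not of the deposited ratios. The log2 levels were taken after a further quantile normalisation of mean intensity between arrays. Names were updated from RefSeq accessions or symbols for 24844 and 7855 of 41174 probes. Limma fits of group means (3 over 6 experiments, 4 over 8 for the direct comparison) tested 16379 genes, with Benjamini-Hochberg adjustment and a threshold of 0.05, and were tested on simulated data. The spread is pooled over groups. Precision is limited by the small number of arrays.

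Members and lists were chosen with earlier results of these data known. All 10 members are described. From each other list at most 3 genes with an adjusted p under 0.05 in a comparison were named, by largest double KO ratio, besides Cxcl1, Cxcl2, Csf3, Cxcr2, Ly6g, Mpo and Lcn2. The alike genes are the 5 of highest Pearson's r for the brightest member and the brightest specific granule member.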

Additional observations from a re-analysis of the deposited data

Results flagged for a closer look

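S100a9 in Nrf2 KO moved in opposite directions in the sets of experiments that differ in sex-linked transcripts: both arrays of experiment 1 were above 0 (mean log2 ratio 0.67) and both arrays of experiment 4 below 0 (mean -0.33). S100a8 did the same with smaller values, 0.0886 in experiment 1 and -0.0883 in experiment 4. Each set holds 1 experiment of this comparison, so the difference between sets was not tested.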

How the results depend on the processing

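With 2 experiments per comparison, calls near the threshold depended on the choices made. Members called in Atg7 cKO (2) were 4 with processed signals, 0 without a filter on dim probes and 0 with the slide as a block, and 0 to 2 when 1 experiment was left out. In the double KO (5) they were 3 with probes above background in at least 12 channels, and 3 to 5 with 1 experiment left out. Directly against Atg7 cKO (1) they were 4 with arrays as units and experiment as a random block, 0 for experiments 7 and 8 alone, 0 without a filter, and 0 to 4 with 1 experiment left out. The array-level fit also called 3 members through wild type and 2 in the interaction, where the other alternatives called 0. In Nrf2 KO all 15 alternatives called 0. The causes were not tested, except that left-out experiments and stricter filters leave fewer values. Of the 682 member values under alternatives, 613 kept direction and side of the threshold, 26 lost the call, 23 gained it, and 20 changed sign where neither was called. Over all genes the calls ranged from 3176 to 8751 in Atg7 cKO, 2820 to 8070 in the double KO, 109 to 4209 directly, 0 to 91 in Nrf2 KO, 80 to 2447 through wild type and 0 to 1188 in the interaction. The comparisons share no replicate numbers. With the set of experiments (1 to 3 or 4 to 6) as a block, 2 members were called in Atg7 cKO, 5 in the double KO and 0 in Nrf2 KO, and no member gained or lost a call. Members near background have only bounds, and values within each set are the single experiments given above, a split added after the data were seen.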

Other observations

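Of 13 tested lymphocyte markers, 4 rose in Atg7 cKO and 7 in the double KO, where 23.4% and 21.4% of all genes were called higher, among them the cytotoxic granule gene Gzma by 0.53 and 0.91 and the natural killer granule gene Nkg7 by 0.39 and 0.88. Their summed level, which includes the offset of 50 for each gene, was 978 to 1068 in wild type and 1415 to 1552 in the double KO. Of 12 eosinophil, basophil and mast cell markers, 3 were tested. Siglecf, an eosinophil and macrophage lectin, was above background in 0 of 12 wild-type, 4 of 4 Atg7 cKO and 2 of 4 double KO channels. Its Atg7 cKO mean of 6.27, against a measured 5.88 in wild type, was at least 1.30-fold higher (limma adjusted p = 0.0125), and its log2 ratio was 0.17 in the double KO (adjusted p = 0.132). Directly against Atg7 cKO, where ratios are of processed signals, it fell by 1.81 (limma adjusted p = 0.025), with -0.99 and -2.63 in experiments 7 and 8. Siglecf was kept through knockout channels alone, all 4 of Atg7 cKO among them, so both calls are a description. Of 6 tested erythroid and megakaryocyte markers, 2 were called higher and 1 lower in Atg7 cKO, with the same counts in the double KO. Over all 16379 genes, 3828 and 3506 were called higher and 2663 and 2616 lower. The platelet chemokine Pf4 rose by 0.79 and 0.93, whereas the erythroid factor Klf1 fell by 0.74 and 0.67. Among endothelial markers 3 of 8 fell in the double KO, beside 2616 of all 16379 genes called lower. They included the sinusoidal lectin Clec4g by 0.77 and the receptor Kdr by 0.59, and Cdh5 rose by 0.56.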
